A study of Mus musculus with 6 samples.

Results

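Respiratory complex I is read here from the mRNAs of 33 of its nuclear-encoded subunits in mouse bone marrow. The members were taken by gene symbol from a fixed list, through the Ensembl identifiers of the count table, and make up 33 of its 47729 genes. All 33 passed the filter on low counts, which left 15686 genes for the test. By role, 6 are core subunits (Ndufs1, Ndufs3, Ndufs7, Ndufs8, Ndufv1 and Ndufv2) and 27 are accessory subunits. The study compared bulk RNA-seq of 3 bone marrow libraries of mice with a knockout of the SNORD113-114 cluster (cluster KO) with 3 of wildtype mice. The cluster, in the imprinted Dlk1-Meg3 region, encodes box C/D small nucleolar RNAs, a class that guides 2′-O-methylation of other RNAs. Strain, age and sex, the construct used, and any cell sorting are not stated in the labels used here. The labels do not say which animal each library came from, and the p-values therefore cover only the spread between libraries, which may be partly technical.

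Complex I, NADH:ubiquinone oxidoreductase, takes electrons from NADH, passes them through a flavin and a chain of iron-sulfur clusters to ubiquinone, and pumps protons across the inner mitochondrial membrane. Its core subunits are conserved from bacteria and carry out this chemistry, while the accessory subunits were added around them in eukaryotes and many are needed to assemble or hold the enzyme. The matrix arm holds the NADH-oxidising N module and the ubiquinone-reducing Q module, and the membrane arm holds the proton-pumping P modules. In bone marrow, hematopoietic stem cells are known to rely little on oxidative phosphorylation, and use of the respiratory chain rises as cells leave the stem cell state.

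The libraries held 17663369 to 23459168 counts on genes. Levels are normalised read counts (CPM, in which each count is divided by its library's TMM-scaled size). On this scale a count of 0 would allow up to 0.128 to 0.170 CPM, for counting error only. Where 3 values of a group are given, they stand in the order of libraries 1, 2 and 3. The snoRNAs are not polyadenylated, and their host transcript Rian held 3 to 9 counts in the cluster KO libraries and 5 to 38 in wildtype, so the deletion could not be checked from these counts. Over all genes tested, the edgeR quasi-likelihood test with Benjamini-Hochberg adjustment at 0.05 called 2487 higher and 1895 lower in cluster KO, and the median log2 fold change was 0.0024. Without cluster KO library 2, wildtype library 2 or wildtype library 3 the lower calls numbered 742, 944 and 860, and the higher calls 1258, 1412 and 1303.

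Most complex I subunit mRNAs were lower in cluster KO bone marrow. Of the 33, 26 fell, 1 rose and 6 were not called, where 12.1% of all genes tested fell and 15.9% rose. The median log2 fold change of the 33 was -0.64. In 27 of the 33 every cluster KO library lay below every wildtype library, and in 2 every one lay above, against 23.1% and 22.9% of all genes tested. The 33 together summed to 10809, 9597 and 9023 CPM in the cluster KO libraries and to 13668, 13882 and 14739 CPM in wildtype. The summed CPM was thus lower in each cluster KO library than in any wildtype library, and its mean in cluster KO was 0.70 of that in wildtype. In bulk RNA, fewer cells of a type that is rich in these mRNAs and less of the mRNA per cell cannot be told apart. Without cluster KO library 2 the test called 20 lower and 0 higher, without wildtype library 3 it called 23 lower, and without wildtype library 2 it called 25 lower. The calls lost in these 3 fits were those of Ndufa11, Ndufb4, Ndufb7, Ndufb8, Ndufs4, Ndufs5 and Ndufv1, and none of their directions changed. With cluster KO library 1 left out, 3 members were called higher (Ndufv1, Ndufs1 and Ndufa10). A fit with the replicate number as a block called 24 lower and 0 higher, without Ndufs7, Ndufa11 and Ndufv1.

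**Figure D1:**
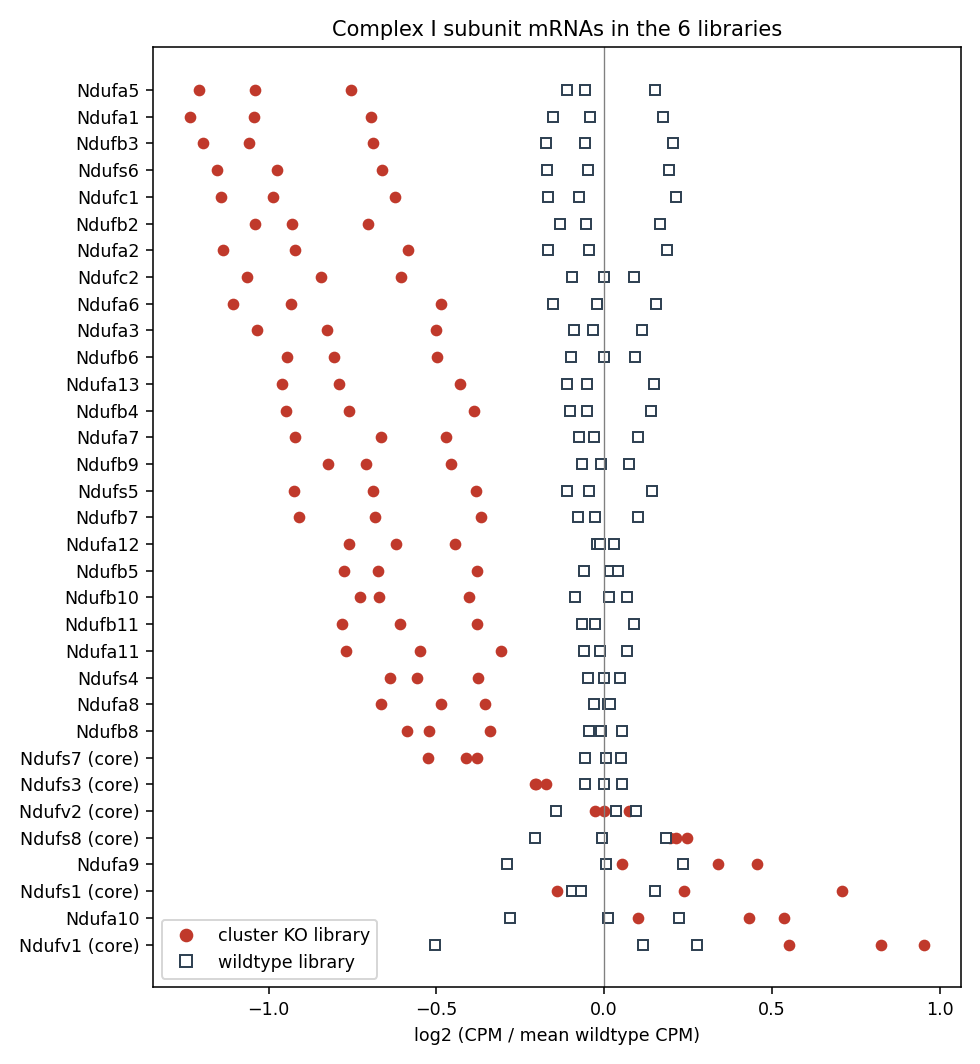
Level of each complex I subunit mRNA in each library, as log2 of its CPM over the mean wildtype CPM, with filled circles for the 3 cluster KO and open squares for the 3 wildtype libraries. The 25 accessory subunits at the top and core subunits Ndufs7 and Ndufs3 lie left of every wildtype library, and Ndufv1 and Ndufs8 lie right of them.

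The core subunits did not move together. Of the 6, 1 fell (Ndufs7), 1 rose (Ndufv1) and 4 were not called, and their median log2 fold change was 0.12. These counts are near the shares of all genes tested that fell (12.1%) and rose (15.9%). Ndufv1, the flavoprotein that binds NADH and holds the flavin where its electrons enter the enzyme, lay at 260.5, 315 and 345 CPM in the cluster KO libraries and at 215, 193 and 125 CPM in wildtype. All 3 cluster KO libraries were above wildtype, the nearest wildtype value being that of library 1, and library 3 was the lowest. The log2 fold change was 0.79 (SE 0.19, edgeR adjusted p = 0.0140), a ratio of mean CPM of 1.72. Its call was lost without cluster KO library 2 (0.77, edgeR adjusted p = 0.0548), and its log2 fold change lay between 0.59 and 0.95 with any library left out.

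Ndufs7, which holds the last iron-sulfur cluster of the chain and lines the ubiquinone site, lay at 490.3, 479.9 and 443 CPM in cluster KO and at 661, 640.4 and 613 CPM in wildtype. The groups did not overlap, and the spread within each was small. Its log2 fold change was -0.44 (SE 0.09, edgeR adjusted p = 0.00871), and with the replicate block it was not called (-0.44, edgeR adjusted p = 0.0533). Ndufs3, a Q module subunit that carries no cofactor, lay at 197, 196 and 201 CPM in cluster KO and at 235, 226 and 218 CPM in wildtype. Its cluster KO libraries were all below wildtype, by a small margin, and its log2 fold change of -0.19 (SE 0.10) was not called (edgeR adjusted p = 0.170).

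Ndufs8, a Q module subunit with a pair of iron-sulfur clusters, lay at 399, 413 and 404 CPM in cluster KO and at 396, 347 and 302 CPM in wildtype. The groups did not overlap, although cluster KO library 1 and wildtype library 1 nearly met, and the log2 fold change of 0.22 (SE 0.12) was not called (edgeR adjusted p = 0.181). Ndufv2, the iron-sulfur partner of Ndufv1 in the N module, lay at 595, 555 and 565 CPM in cluster KO and at 604, 579.9 and 512 CPM in wildtype. The groups overlapped throughout (log2 fold change 0.016, SE 0.10, edgeR adjusted p = 0.917). The sign of this value changed with the scaling and with the library left out, from -0.086 with upper quartile scaling to 0.067 without wildtype library 1. Ndufs1, the large iron-sulfur subunit of the N module, lay at 129, 168 and 232 CPM in cluster KO and at 158, 133 and 136 CPM in wildtype. Cluster KO library 1 was the lowest of all 6 and library 3 the highest, so the groups overlapped (log2 fold change 0.31, SE 0.19, edgeR adjusted p = 0.252). Ndufs1 was called higher without cluster KO library 1 (0.48, edgeR adjusted p = 0.0301).

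Nearly all accessory subunits fell. Of the 27, 25 fell and 0 rose, with a median log2 fold change of -0.67, and in each of the 25 the groups did not overlap. The exceptions were Ndufa9 and Ndufa10. Their fitted changes ran from -0.99 (Ndufa5) to 0.37 (Ndufa10), and the change in mean CPM from -49.6% to 29.1% of wildtype. By module, 6 of the 9 N module members fell and 1 rose (median -0.60), as did 2 and 0 of the 5 Q module members (median -0.19). Of the membrane arm, 8 of 9 proximal members fell (median -0.71) and 10 of 10 distal members (median -0.65). Per kilobase of the principal transcript, wildtype levels of the accessory subunits ran from 130.3 (Ndufa10) to 1666 CPM (Ndufa1) and those of the core from 53.5 (Ndufs1) to 842 CPM (Ndufs7). In cluster KO the same levels ran from 91.9 (Ndufb4) to 941 CPM (Ndufb8) and from 66.3 (Ndufs1) to 622 CPM (Ndufs7).

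In the Q module, Ndufa5 showed the lowest fitted change of the 33. This small subunit of the matrix arm lay at 242, 199 and 177 CPM in cluster KO and at 378, 393 and 454 CPM in wildtype. The highest cluster KO library was well below the lowest wildtype library. Its log2 fold change was -0.99 (SE 0.14, edgeR adjusted p = 0.00231), a ratio of mean CPM of 0.504. Ndufa9, an accessory subunit with a nucleotide-binding fold that sits where the arms meet, lay at 293, 356 and 387 CPM in cluster KO and at 332, 283 and 231 CPM in wildtype. The groups overlapped through cluster KO library 1 and wildtype library 1 (log2 fold change 0.29, SE 0.15, edgeR adjusted p = 0.176).

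In the N module, 6 accessory members fell. Ndufs6, a zinc-binding subunit needed to complete the N module, lay at 319, 257 and 227 CPM in cluster KO and at 449, 489 and 577 CPM in wildtype. Ndufa2, with a thioredoxin-like fold, lay at 466, 368 and 318 CPM in cluster KO and at 622, 677 and 795 CPM in wildtype. In both, wildtype library 3 was the highest and cluster KO library 3 the lowest, with no overlap. Their log2 fold changes were -0.92 (SE 0.15, edgeR adjusted p = 0.00322) and -0.86 (SE 0.15, edgeR adjusted p = 0.00416). Ndufa6, a LYR-motif protein that binds the mitochondrial acyl carrier protein, lay at 256, 188 and 167 CPM in cluster KO and at 323, 354 and 399.8 CPM in wildtype. Its log2 fold change was -0.82 (SE 0.16, edgeR adjusted p = 0.00627). Ndufa7 and Ndufa12, the latter a relative of the assembly factor Ndufaf2, fell by 0.67 and 0.60 on the log2 scale (edgeR adjusted p = 0.00525 and 0.00483). Ndufs4, whose loss in mice is a model of Leigh syndrome, lay at 219.6, 193 and 183 CPM in cluster KO and at 276, 285 and 294 CPM in wildtype. The groups of Ndufs4 were close but apart, with a log2 fold change of -0.52 (SE 0.11, edgeR adjusted p = 0.00802).

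In the proximal membrane arm, Ndufa1 had the largest fall. This short X-linked subunit with a single membrane helix lay at 432, 339 and 297 CPM in cluster KO and at 628, 677 and 789 CPM in wildtype. Every cluster KO library was below the wildtype range, library 3 most of all. Its log2 fold change was -0.97 (SE 0.15, edgeR adjusted p = 0.00282). The paired small membrane subunits Ndufc1 and Ndufc2 fell by 0.90 and dropped by 0.83 (edgeR adjusted p = 0.00406 and 0.00297), and Ndufa3, also a short membrane subunit, fell by 0.77 (edgeR adjusted p = 0.00485). Ndufa13, known also as GRIM-19 for a role in cell death, lay at 335, 261 and 232 CPM in cluster KO and at 417, 435 and 499.6 CPM in wildtype, with no overlap (log2 fold change -0.71, SE 0.14, edgeR adjusted p = 0.00709). The changes of Ndufs5, Ndufa11 and Ndufa8 were smaller, with falls of 0.65, 0.53 and 0.50 (edgeR adjusted p = 0.0108, 0.0140 and 0.00863). Ndufs5 and Ndufa8 carry the paired cysteines of proteins folded in the intermembrane space, and Ndufa11 spans the membrane.

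Ndufa10, a proximal subunit with a fold like that of nucleoside kinases, did not fall. It lay at 283, 355 and 382 CPM in cluster KO and at 307, 265 and 217 CPM in wildtype. The groups overlapped only through cluster KO library 1, which was below wildtype library 1. The log2 fold change was 0.37 (SE 0.15, edgeR adjusted p = 0.0980), and without cluster KO library 1 it was called higher (0.47, edgeR adjusted p = 0.0253).

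The distal membrane arm was the module in which every member fell. Ndufb3, a small subunit with a single membrane helix, lay at 257, 198 and 181 CPM in cluster KO and at 367, 397 and 477 CPM in wildtype, a log2 fold change of -0.96 (SE 0.15, edgeR adjusted p = 0.00311). Ndufb2, another small membrane subunit, lay at 191, 163 and 151 CPM in cluster KO and at 284, 299 and 349 CPM in wildtype, a log2 fold change of -0.89 (SE 0.13, edgeR adjusted p = 0.00260). In both, the lowest wildtype library was above the highest cluster KO library. Ndufb9, the other LYR-motif subunit that holds an acyl carrier protein, lay at 730.2, 613 and 566 CPM in cluster KO and at 957, 995 and 1054 CPM in wildtype. Its log2 fold change was -0.65 (SE 0.11, edgeR adjusted p = 0.00382). Ndufb8, a single-helix subunit often used as a protein marker of assembled complex I, lay at 705, 621 and 593 CPM in cluster KO and at 886, 864 and 925 CPM in wildtype. It had the smallest fall of the distal members, with a log2 fold change of -0.48 (SE 0.10, edgeR adjusted p = 0.00742). The other members fell between 0.74 and 0.58, namely Ndufb6, Ndufb4, Ndufb7, Ndufb5, Ndufb10 and X-linked Ndufb11, with no overlap of the groups in any of them. Ndufb4 had the lowest counted level of the accessory subunits, with 109, 84.3 and 74.2 CPM in cluster KO and 138, 133 and 158 CPM in wildtype (edgeR adjusted p = 0.0113).

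The balance of accessory to core mRNA differed between the groups in each library. The 27 accessory subunits summed to 8739, 7470.2 and 6833 CPM in cluster KO and to 11399, 11763 and 12833 CPM in wildtype. The 6 core subunits summed to 2071, 2127 and 2190.2 CPM in cluster KO and to 2269, 2119 and 1906 CPM in wildtype. The accessory sum was lower in every cluster KO library, whereas the core sums of the groups overlapped. The accessory to core ratio was 4.22, 3.51 and 3.12 in the cluster KO libraries and 5.02, 5.55 and 6.73 in wildtype, with means of 3.62 ± 0.558 and 5.77 ± 0.875 (SD, n = 3). For a pair at the extremes, the ratio of Ndufa5 to Ndufv1 CPM was 0.928, 0.631 and 0.513 in cluster KO and 1.76, 2.04 and 3.62 in wildtype. In both ratios the nearest libraries of the groups were cluster KO library 1 and wildtype library 1.

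**Figure D2:**
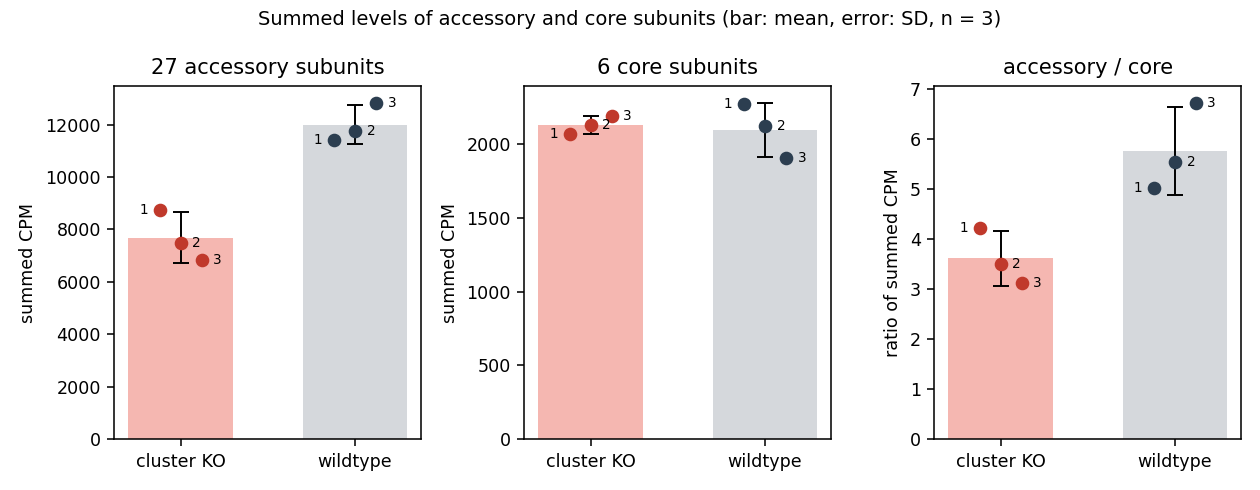
Summed CPM of the 27 accessory subunits, of the 6 core subunits, and their ratio, with a point per library (numbered), a bar for the group mean and an error bar of 1 SD (n = 3). The accessory sums do not overlap between the groups (6833 to 8739 against 11399 to 12833 CPM), and the core sums do.

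The change of a subunit mRNA ran with its coding length. All 25 members with a coding sequence of up to 600 bases fell, and they were all accessory subunits. Of the 8 longer members, 1 fell (Ndufs7) and 1 rose (Ndufv1), with a median log2 fold change of 0.26, and these were the 6 core subunits with Ndufa9 and Ndufa10. The limit of 600 bases was chosen after the values were seen. It falls in the gap between Ndufb5, at 567 bases, and Ndufs8, at 636 bases. Core membership and coding length can therefore hardly be told apart in these genes, since no core subunit is short and only Ndufa9 and Ndufa10 are long accessory subunits. Both long accessory subunits had values near those of the core members. Across the 33, coding length and log2 fold change had a Spearman rho of 0.91 and, with length on a log2 scale, a Pearson r of 0.90. Among the 27 accessory subunits alone they were 0.84 and 0.89. These are descriptions across genes that share the same 6 libraries, and genes are not independent replicates.

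All genes did not share this relation in the same form. Over 12783 tested protein-coding genes the rho was -0.17, and the median log2 fold change was lowest at both ends of the length range. With the genes in 10 classes of equal size by length, in the shortest class, with 75 to 513 coding bases, 30.9% of genes fell and the median was -0.17. The 19 members in that class all fell, with a median of -0.77. In the next class, with 516 to 717 bases, 10.4% of genes fell and the median was 0.15. Of the 8 members there, 7 fell, with a median of -0.51, and the one that was not called was Ndufs8. In the fourth class, with 933 to 1122 bases, where the only member was Ndufa10 at 0.37, the median of all genes was 0.36. The short members were thus further down than most genes of like length, while Ndufa10 lay at their median.

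**Figure D3:**
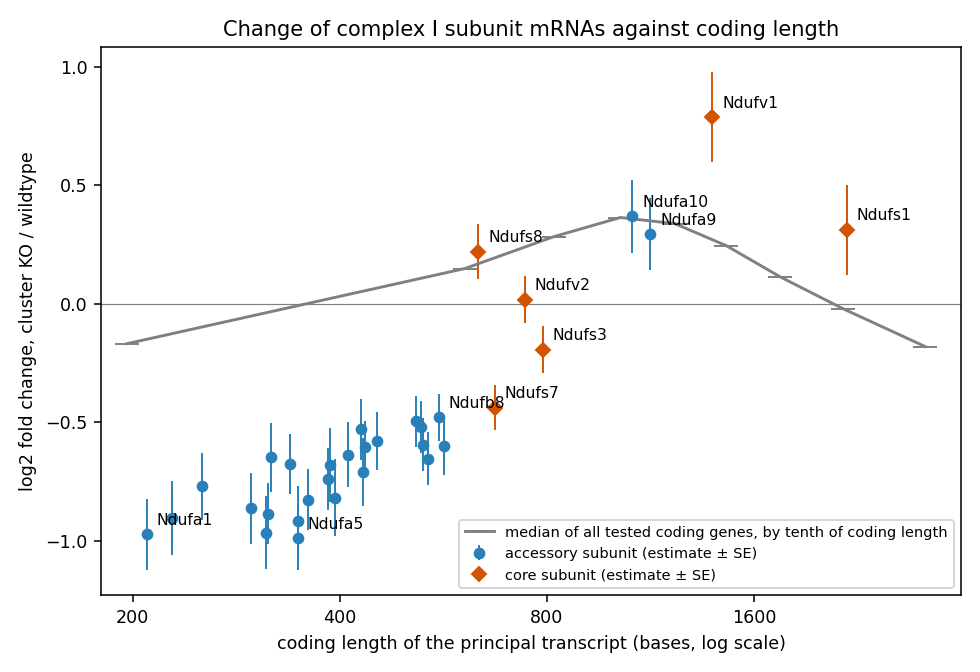
Log2 fold change (cluster KO over wildtype, with 1 SE) of each complex I subunit against the coding length of its principal transcript on a log scale, with blue circles for accessory and orange diamonds for core subunits. The grey line joins the medians of all tested coding genes in successive classes of coding length, the longest class not drawn, and the short accessory subunits lie below it while Ndufa10 lies on it.

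When the trend of counts with transcript length and GC content was taken out of each library before the test, the split of long and short members narrowed but the fall of the accessory subunits remained. With these offsets 28 of the 33 fell and 0 rose, with a median log2 fold change of -0.50, where 12.8% of all genes fell and 11.0% rose. The accessory subunits kept 25 falls (median -0.57), while 3 core subunits fell, namely Ndufs7 (-0.28), Ndufs3 (-0.27) and Ndufv2 (-0.33, edgeR adjusted p = 0.0204). Ndufv1 was no longer called (0.39, edgeR adjusted p = 0.0877), and Ndufa10 changed sign (-0.12). The values of 12 called members moved by over 1.5 times, most of them towards 0, such as Ndufa1 to -0.56 and Ndufa11 to -0.26, but Ndufs4 moved to -0.88. An alternative with coding length in place of transcript length, chosen after seeing the data, called 27 lower and 0 higher (median -0.66), with 15.2% and 10.1% of all genes. With it 2 core subunits fell, Ndufs7 (-0.69) and Ndufs3 (-0.54), Ndufv1 was again not called (0.44, edgeR adjusted p = 0.0664), and Ndufa9, Ndufa10 and Ndufs8 were at -0.053, -0.032 and -0.033. The median of all genes tested was -0.088 under this alternative. Across the 33, the rho of coding length and change was 0.63 after the first correction and 0.42 after the second.

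**Figure D4:**
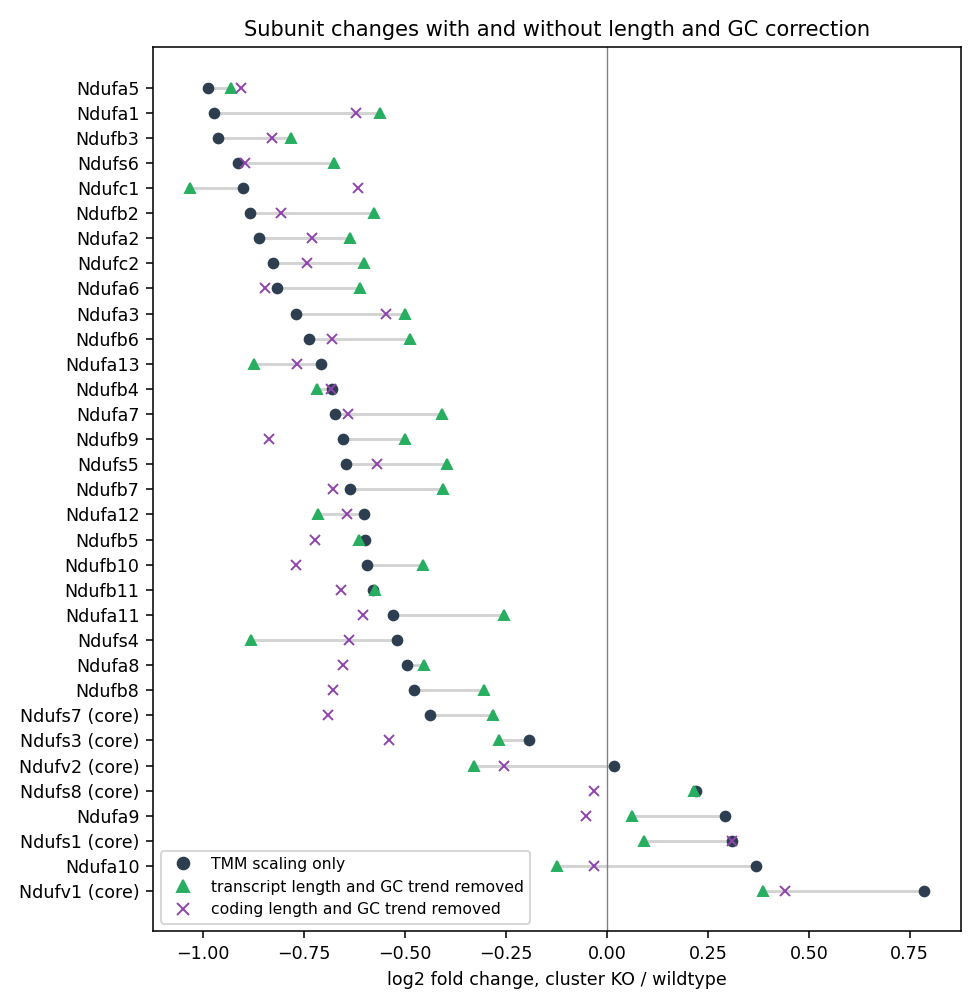
Log2 fold change of each complex I subunit with TMM scaling alone (circle), with the transcript length and GC trend removed (triangle) and with the coding length and GC trend removed (cross). The 25 lower accessory subunits stay left of 0 under all 3, while Ndufv1 moves from 0.79 to 0.39 and 0.44.

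The libraries of a group also differed from each other in the same sense across the members. Within cluster KO, library 1 was the highest and library 3 the lowest for all 25 members with up to 600 coding bases. Within wildtype, library 3 was the highest and library 1 the lowest for 22 of the 27 accessory subunits, and the reverse held for 5 of the 6 core subunits. Several properties of the libraries moved with these levels. Reads outside genes took 10.05%, 8.59% and 7.29% of the reads in cluster KO and 10.03%, 10.5% and 11.06% in wildtype. The groups overlapped (exact permutation test, two-sided, p = 0.2). Reads with more than 1 alignment took 14.7%, 13.9% and 13.4% in cluster KO and 16.1%, 16.3% and 16.8% in wildtype, without overlap, and ambiguous reads took 2.82%, 2.79% and 2.71% against 2.92%, 2.93% and 2.95%. Genes of the mitochondrial genome took 2.17%, 1.73% and 1.46% of the gene counts against 2.77%, 2.72% and 3.06%. For each of these last 3 shares the two-sided exact permutation p was 0.1, the smallest that 3 against 3 libraries can give. The part of these library properties in the subunit result was not tested beyond the length and GC corrections.

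Some markers of blood cell types also differed between the groups, where 12.1% of all genes tested fell and 15.9% rose. The sums of the neutrophil, erythroid, T and NK cell and stromal lists overlapped between the groups. Markers shared by blood cells were present in every library (Ptprc, Coro1a, Laptm5, Spi1 and Vav1 summed to 970.0 to 1268 CPM in cluster KO and 626 to 662 CPM in wildtype), and 3 of the 5 rose. Of 8 B lineage markers 6 rose, and their sum was 1716 to 1848 CPM in cluster KO and 554 to 604 CPM in wildtype. Of 6 megakaryocyte and platelet markers 3 fell (103 to 150.4 CPM against 288 to 399.6 CPM), and of 8 erythroid markers 4 fell (619.9 to 827 against 812 to 1103 CPM). Of 8 neutrophil markers 3 rose, with sums of 10557 to 20090.0 CPM and 6161 to 11923 CPM, and of 8 stem and progenitor markers 3 rose and 2 fell (1006 to 1021 against 929 to 966 CPM). None of 6 monocyte markers was called (126 to 233 against 113 to 119 CPM), and 1 of 8 T and NK cell markers rose (412 to 535 against 372 to 467 CPM). Of 8 stromal and endothelial markers 1 rose, Col1a1, Cdh5 and Bglap had too few counts to test, and the sums over the other 5 were 46.6 to 138 against 25.3 to 63.5 CPM. No marker was at 0 in every library, and the part of cell composition in the subunit result was not tested. By level, to name a few after their values were seen, Kit lay at 243 to 363 CPM and Hlf at 117 to 180 CPM over the libraries. The erythroid markers Alas2 and Slc4a1 reached at most 6.02 and 2.10 CPM, while the neutrophil marker S100a8 lay at 1896 to 5662 CPM. Whether the libraries stand for whole marrow cannot be told from the labels.

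Since many members fell together, their start regions were searched for motifs of known regulators of respiratory chain genes, and the stretches that hold the motifs of NRF1 and YY1, chosen after the counts were seen, are shown. RefSeq windows from 250 bases before to 50 bases after the start, on GRCm38.p6, were at hand for 30 of the 33 members, all but Ndufa2, Ndufb9 and Ndufs1. The motif GCGCANGCG, a core of that of NRF1, a known activator of respiratory chain genes, was searched on both strands and was in the windows of 8 of the 30 (26.7%), against 7.03% of 27025 genes. All 8 belong to mRNAs that fell, where 24 of the 30 did. The median GC content of the 250 upstream bases was 57.8% over the members' windows and 52.4% over all windows, and the motif itself is GC-rich. The matches, 1 of each set that overlap, are given in capitals, 5′ to 3′ on the gene's strand.
Ndufa11, chr17:56717692-56717721, plus strand: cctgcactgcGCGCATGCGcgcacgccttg
Ndufa5, chr6:24527697-24527726, minus strand: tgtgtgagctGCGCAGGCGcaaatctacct
Ndufa6, chr15:82354248-82354277, minus strand: cgtggcaccgCGCGTGCGCacgctgaaggg
Ndufa8, chr2:36049348-36049377, minus strand: tagagcagtgCGCTTGCGCgtcgctggaga
Ndufa8, chr2:36049328-36049357, minus strand: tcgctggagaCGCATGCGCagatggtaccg
Ndufb10, chr17:24724406-24724435, minus strand: tcacctttctGCGCAGGCGtagaggtcccg
Ndufb4, chr16:37654540-37654569, minus strand: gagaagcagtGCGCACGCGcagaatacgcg
Ndufb4, chr16:37654428-37654457, minus strand: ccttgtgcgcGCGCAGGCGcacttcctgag
Ndufb4, chr16:37654371-37654400, minus strand: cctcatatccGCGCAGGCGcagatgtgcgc
Ndufs5, chr4:123718265-123718294, minus strand: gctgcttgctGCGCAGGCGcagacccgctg
Ndufs6, chr13:73328478-73328507, minus strand: gactgctgtgCGCCTGCGCcggcacttggt

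Ndufb4 carried 3 such matches and Ndufa8 more than 1. The YY1 motif AAGATGGCG was in 5 of the 30 windows (16.7%), against 1.64% of all genes, each time just downstream of the start. These 5 are Ndufa9, which was not called, and Ndufc1, Ndufs4, Ndufs6 and Ndufs7, which fell. The capitals mark the match.
Ndufa9, chr6:126849096-126849125, minus strand: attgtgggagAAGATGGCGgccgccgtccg
Ndufc1, chr3:51408914-51408943, minus strand: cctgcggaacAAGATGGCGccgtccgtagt
Ndufs4, chr13:114388045-114388074, minus strand: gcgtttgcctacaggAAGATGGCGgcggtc
Ndufs6, chr13:73328433-73328462, minus strand: aagggtcaccggcAAGATGGCGgcggtgct
Ndufs7, chr10:80249463-80249492, plus strand: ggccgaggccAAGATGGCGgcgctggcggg

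Ndufs6 was the only member with both motifs, which do not overlap each other. The ETS motif CCGGAAG, bound by GABP, was in 4 of the 30 windows (13.3%, all genes 9.93%), those of Ndufb6, Ndufb7, Ndufs3 and Ndufs8. The cyclic AMP response element TGACGTCA was in 3 (all genes 2.03%), TATAAA in 4 (13.3%, all genes 15.7%) and CCAAT in 9 (all genes 41.1%), also on both strands. The upstream sequences of Ndufb2, which fell, and of Ndufv1, which rose, are shown as an example of members that moved in opposite directions, up to the first annotated exon base. Capitals mark a CCAAT and a TGACGTCA match in Ndufb2, and none of the 6 motifs was in the window of Ndufv1. A match describes letters in a window and is not a measured binding site.
Ndufb2, chr6:39592315-39592564, plus strand: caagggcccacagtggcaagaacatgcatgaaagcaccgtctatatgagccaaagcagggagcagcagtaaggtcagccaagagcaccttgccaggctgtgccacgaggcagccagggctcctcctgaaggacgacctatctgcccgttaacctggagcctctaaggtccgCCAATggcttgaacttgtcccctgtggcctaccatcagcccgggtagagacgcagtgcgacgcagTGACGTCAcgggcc
Ndufv1, chr19:4012807-4013005, minus strand: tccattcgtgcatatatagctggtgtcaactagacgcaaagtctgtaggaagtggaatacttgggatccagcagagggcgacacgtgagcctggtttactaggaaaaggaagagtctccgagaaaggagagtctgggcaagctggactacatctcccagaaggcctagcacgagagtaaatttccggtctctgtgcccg

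Neighbours that share a start region with a member did not all move with it. Within 1000 bases and on the opposite strand, 10 members had the start of a protein-coding gene that faces away from them, and 8 of those genes were tested. Starts that lay more than a short stretch inside the member were left out. They were chosen by position, after the members' values were seen. Ndufs1 and Eef1b2, a translation elongation factor subunit, start 8 bases apart. Eef1b2 lay at 694, 527 and 460.3 CPM in cluster KO and at 1023, 1117 and 1323 CPM in wildtype, and fell (log2 fold change -1.04, SE 0.16, edgeR adjusted p = 0.00277), while Ndufs1 was at 0.31. Ndufs3 and Kbtbd4 start 87 bases apart, and Kbtbd4 rose by 1.79 (SE 0.36, edgeR adjusted p = 0.00691) while Ndufs3 was at -0.19. Kbtbd4 had a low level, at 10.4, 15.9 and 25.2 CPM in cluster KO and at 6.92, 4.53 and 3.43 CPM in wildtype. Ndufs1 shares exonic bases with Eef1b2, and Ndufs3 shares 88 with Kbtbd4. The libraries keep no strand, so the counts within each of these pairs may not be wholly separate. Rps28, a ribosomal protein gene 10 bases from the start of Ndufa7, fell (-1.11, SE 0.17, edgeR adjusted p = 0.00293), as did Mrpl36, a mitochondrial ribosomal protein gene beside Ndufs6 (-0.35, SE 0.10, edgeR adjusted p = 0.0330). Rnf113a1, Ik, Fam126b and Tatdn1, beside Ndufa1, Ndufa2, Ndufb3 and Ndufb9, were not called, with values of 0.37, 0.11, -0.39 and -0.21.

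Counts of some members could include reads of other genes. The libraries do not keep strand, and 14 of the 33 share exonic bases with another annotated gene, among them Ndufb6 with Smim27 (39.0% of its exonic bases), Ndufb9 with Gm49356 (19.5%) and Ndufa13 with Tssk6 (375 bases). A processed pseudogene at least 95% identical over at least 100 bases exists for 7 members. That of Ndufa12, Gm15920, held 238 to 377 counts per library, 4.59% of the counts of Ndufa12, and was 99.5% identical over 402 bases. The pseudogenes of Ndufb4, Ndufb11, Ndufs3, Ndufs5 and Ndufs6 held at most 5 counts in a library. That of Ndufb3, Gm45930, had no row in the counts. Reads with more than 1 alignment were kept apart from the gene counts, so reads shared with a copy may be missing from both. The counts of the copies therefore do not bound the uncertainty of these members. The transcript of Ndufc1 also holds a stretch that is near-identical in many unrelated genes. Of the 15 members with neither an overlap nor such a pseudogene, 11 fell and 1 rose.

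The mRNAs of proteins that build complex I moved in both directions. Of 18 assembly factors tested, 3 fell and 4 rose, with a median log2 fold change of 0.17, and these counts are near the 12.1% and 15.9% of all genes tested that fell and rose. Ndufaf2, the factor that holds the place of its relative Ndufa12 during assembly, lay at 72.6, 62.2 and 53.7 CPM in cluster KO and at 95.1, 110.1 and 118.5 CPM in wildtype, and fell (-0.78, SE 0.15, edgeR adjusted p = 0.00547). Ndufaf8 and Dmac1, which act in assembly of the matrix arm and of the distal membrane arm, fell by 0.73 and 0.64 (edgeR adjusted p = 0.00609 and 0.00596). Dmac2, related to the distal membrane arm factors, rose by 0.88 (SE 0.22, edgeR adjusted p = 0.0150). The 3 that fell had coding lengths of 222 to 504 bases and Dmac2 one of 771 bases. The test called 0 assembly factors higher without cluster KO library 2 or wildtype library 3, without wildtype library 2 it called 1 and without cluster KO library 3 it called 2.

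The core subunits of the membrane arm are encoded in the mitochondrial genome, and their mRNAs were lower in cluster KO. Of 6 tested, 5 fell, and in all 6 the groups did not overlap, with a median log2 fold change of -0.93. Of all genes tested 12.1% fell, and in 23.1% every cluster KO library lay below every wildtype library. The seventh, mt-Nd4l, had 5 to 12 counts per library and was not tested. The proton-pumping subunit mt-Nd2 lay at 987, 672 and 542 CPM in cluster KO and at 1438, 1469.8 and 1731 CPM in wildtype (log2 fold change -1.08, SE 0.19, edgeR adjusted p = 0.00431). Its cluster KO values spread widely, library 3 being the lowest, and stayed under wildtype. The change was -0.83 (SE 0.15) for mt-Nd4, -1.03 (SE 0.19) for mt-Nd6 and -0.47 (SE 0.11) for mt-Nd1, which anchors the membrane arm to the Q module (edgeR adjusted p = 0.00499, 0.00499 and 0.0108). The core subunits of the nuclear genome, with 1 fall in 6, and those of the mitochondrial genome thus gave different counts, and no test of that difference was made. Of the 6 mitochondrial mRNAs, 3 were called lower without cluster KO library 2.

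Where 12.1% of all genes tested fell and 15.9% rose, 25 of the 27 complex I accessory subunits fell and 0 rose. Of the nuclear subunits of complexes II to V, 27 of 41 tested fell and 5 rose, with a median log2 fold change of -0.67. Of these, complex IV had 11 falls in 12, of which the 4 with the smallest p were Cox7c (-1.11), Cox6a1 (-0.95), Cox7b (-0.89) and Cox6b1 (-0.82), complex V had 11 falls and 2 rises in 16, and complex III had 5 falls and 2 rises in 9. The complex V inhibitor Atpif1 lay at 1071, 883 and 809 CPM in cluster KO and at 1784, 1989 and 2222 CPM in wildtype (log2 fold change -1.12, SE 0.12, edgeR adjusted p = 0.00113). Complex II, which takes electrons from succinate and pumps no protons, had 0 falls and 1 rise in 4. Its membrane anchor Sdhc lay at 196, 203 and 254 CPM in cluster KO and at 158, 121 and 116 CPM in wildtype and rose (0.73, SE 0.15, edgeR adjusted p = 0.00831). Coding lengths in complexes II to V, looked at after the values were seen, showed a like split. The 27 that fell had 156 (Atp5e) to 639 bases (Atp5o). Of the 5 that rose, Uqcrc2, Uqcrc1, Atp5b and Atp5a1 had 1359 to 1659 bases, and Sdhc had 507. The run of change with coding length was thus not particular to complex I. Without cluster KO library 2 or 3 the rises over complexes II to V were 3, and without wildtype library 2 or 3 they were 2.

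Other genes that supply the mitochondrion moved in both directions, where 12.1% of all genes tested fell and 15.9% rose. Of 25 import and carrier genes 10 fell and 5 rose (median -0.22), among them the small subunits of the outer membrane translocase Tomm7 (-1.001, SE 0.15) and Tomm5 (-0.79, SE 0.12), the chaperone Timm10 (-0.75, SE 0.12) and the oxoglutarate carrier Slc25a11 (0.85, SE 0.16). Of 15 regulators of mitochondrial biogenesis 4 fell and 1 rose (median -0.035). The 5 rises among import and carrier genes were near the share of all genes, and the 1 among regulators was not above it. Gabpb1, a subunit of the ETS factor GABP, lay at 74.1, 95.2 and 103.7 CPM in cluster KO and at 48.5, 51.9 and 44.8 CPM in wildtype and rose (0.91, SE 0.15, edgeR adjusted p = 0.00362). Of the other GABP subunits in the list, named after their values were seen, Gabpb2 fell (-0.73, SE 0.23, edgeR adjusted p = 0.0415) and Gabpa was not called (0.00025, SE 0.13, edgeR adjusted p = 0.999). Yy1 (-0.71, SE 0.18), the coactivator Pprc1 (-0.93, SE 0.21) and the mitochondrial RNA polymerase Polrmt (-0.85, SE 0.26) fell (edgeR adjusted p = 0.0160, 0.00995 and 0.0347). With cluster KO library 2 left out, 4 import genes and 0 regulators were called lower and 3 import genes higher. Without wildtype library 2 or 3, 5 import genes were lower, with 3 or 2 higher, and 2 or 1 regulators were lower. Without wildtype library 1, 2 regulators were lower and 2 higher.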

How the data were processed

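Poly(A) RNA-seq libraries of bone marrow (Nextera XT, no strand kept, 6 pooled for sequencing, per the labels) were processed by the authors with bcl2fastq, TopHat2 and HTSeq on mm10, per the submitters' processing notes. Their versions, the gene annotation and the HTSeq mode were not stated. The authors deposited raw counts of reads for each Ensembl gene, not normalized, and the 5 HTSeq summary rows stayed out of library sizes and tests. Gene positions, coding lengths and overlaps came from GENCODE M21 on GRCm38 (47224 genes matched), using the principal transcript of each gene, and promoter sequences from the RefSeq table of GRCm38.p6.

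Groups were taken from the sample titles. Cluster KO was compared with wildtype over all genes in edgeR 4.0.16 under R 4.3.3 (TMM, filterByExpr with a minimum count of 10, robust quasi-likelihood F-test, genotype as the only term, Benjamini-Hochberg at 0.05), and members were read off that fit with no p of their own. SE is the log2 fold change over the square root of F. A group was called non-overlapping when its 3 libraries all lay on 1 side of the other 3. Library shares were compared with exact permutation tests. The test was checked on simulated counts. The alternatives were DESeq2 1.42.0 (size factors, and its Wald test), upper quartile and total count scaling, filters, no robust shrinkage, each library left out, a replicate block, and offsets that remove spline trends with length and GC. Copies were found with blastn 2.17.0.

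All 33 members are named, and up to 4 tested genes with the smallest p per pathway list. Motifs, members and lists (assembly factors, mitochondrially encoded subunits, complexes II to V, import and carriers, biogenesis regulators, and the 9 marker lists) were chosen with earlier results of these data known. The NRF1 and YY1 motifs were shortened by 1 letter after the longer forms had been searched. Of the assembly factor list, 1 symbol found no row. A further core subunit named by the rule is not reported here. Libraries with the same replicate number did not deviate together from their group means (correlations -0.12, 0.015 and -0.089), so the numbers were not taken to pair libraries. Pairs of libraries of a group differed by more than counting noise, so none was merged.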

Additional observations from a re-analysis of the deposited data

How the results depend on the processing

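Over 17 alternatives, 19 of the 33 complex I members were called lower in every one. Of the members' values under these alternatives, 524 kept direction and call, 22 lost the call, 4 gained one and 11 changed sign. Sign changes were those of Ndufv2 with upper quartile scaling (-0.086), without cluster KO library 1 (-0.023), without wildtype library 3 (-0.051, the single-library range reaching 0.067), with length and GC offsets (-0.33, also with the block) and with coding length offsets (-0.26), of Ndufa10 with the same 3 offsets (-0.12, -0.12 and -0.032), and of Ndufa9 (-0.053) and Ndufs8 (-0.033) with coding length offsets. Upper quartile scaling put the median of all genes at -0.10 and left the members' counts at 26 and 1. The coding length offsets, chosen after seeing the data, put the median of all genes at -0.088. They left genes without a coding length uncorrected for length and GC. The cause of the shifts was not tested.

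With single libraries left out, 20 to 26 members were lower and 0 to 3 higher, with a median of -0.77 to -0.53. Core subunits higher numbered 0 to 2, accessory subunits higher 0 to 1, all genes lower 742 to 2579 and higher 1258 to 3151. Assembly factors higher numbered 0 to 6, mitochondrial mRNAs lower 3 to 6, import genes lower 4 to 10 and higher 2 to 6, regulators lower 0 to 6 and higher 1 to 2, and complexes II to V higher 2 to 7.

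With the replicate block, which has no basis in the correlations of the libraries, 24 members were lower and 0 higher, core subunits 0 and 0, all genes 865 and 1331, assembly factors higher 0, import genes 4 and 3, and complexes II to V higher 2. With the block and the length offsets together, 21 members were lower and 0 higher (median -0.50), core subunits 0 and 0 (median -0.098), all genes 1017 and 780, assembly factors higher 0, mitochondrial mRNAs lower 3, import genes higher 0, regulators lower 1 and complexes II to V higher 1.

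With the length offsets alone 0 members were higher (median -0.50), core subunits 3 lower and 0 higher (median -0.087), assembly factors 5 and 1, import genes higher 3, regulators higher 2 and complexes II to V higher 3. With coding length offsets 0 members were higher, core subunits 2 lower and 0 higher (median -0.14), all genes higher 1585, assembly factors higher 0 and import genes higher 1. Upper quartile scaling gave 2 assembly factors higher. Regulators higher numbered 2 with DESeq2 size factors, total counts, no filter or a mean CPM of at least 1, and 3 with the DESeq2 Wald test. Depth limited the members little, since Ndufb4, the lowest, held 14472 counts over the 6 libraries.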
